A study of Mus musculus with 94 samples.

Results

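Expression of 9 immediate early genes (Fos, Fosb, Jun, Junb, Jund, Egr1, Atf3, Ier2 and Zfp36) and of Myc was examined in single perivascular adipose tissue-derived stem cells (PV-ADSCs). These 10 genes were chosen by name from the 16069 genes of the deposited matrix, and all 10 had a row in it. They were described over all 85 cells and in 2 classes of cells, the 58 stromal cells, in which the deposited value of Dcn (decorin, a matrix proteoglycan of fibroblasts) was at least 1000, and the 27 other cells.

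All cells came from the adipose tissue around the aorta of c57/bl mice aged 8 weeks, with no treatment or genotype that differed between them. The tissue was digested with collagenase I, and cells negative for CD144 (encoded by Cdh5) and CD45 and positive for CD29 and Sca1 were sorted and sequenced without culture, each cell giving a full-length cDNA library of its own. Of the 94 cells in the series, 9 were not analysed here. No animal is named for any cell, so the cells were 1 sample and no test between cells was made.

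Immediate early genes are switched on in cells of most tissues by growth factors, stress and mechanical injury, through kinases that act on transcription factors already present, and their RNAs are short-lived. Fos and Jun proteins pair to form the transcription factor AP-1, whereas Egr1 binds DNA sites of its own, and the Zfp36 protein marks AU-rich RNAs for decay. Myc is a growth-related transcription factor of the early response that binds DNA together with Max, and enzymatic dissociation of tissue is itself known to switch on immediate early genes in stromal cells.

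RefSeq promoters were examined for 7 of the 10 members, and not for Egr1, Ier2 and Myc. Those of 6 are shown because these members either varied together most closely across stromal cells or differed most between the classes. Each line gives the 120 bases that end just before the annotated transcription start, 5′ to 3′ on the gene's own strand, in build GRCm38.p6, at chr12:85473770-85473889 on the plus strand for Fos, chr7:19310046-19310165 on the minus strand for Fosb, chr4:95052223-95052342 on the minus strand for Jun, chr8:84978749-84978868 on the minus strand for Junb, chr8:70697619-70697738 on the plus strand for Jund and chr7:28379229-28379348 on the minus strand for Zfp36. Capitals mark matches, on either strand, to the half-site TGACG of the cyclic AMP response element, the related octamer TGACATCA, the TATA box TATAAA, or the CArG box, which is the recognition site of serum response factor.
Fos: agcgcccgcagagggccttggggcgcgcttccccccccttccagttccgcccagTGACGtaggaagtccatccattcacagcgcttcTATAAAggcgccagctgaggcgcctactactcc
Fosb: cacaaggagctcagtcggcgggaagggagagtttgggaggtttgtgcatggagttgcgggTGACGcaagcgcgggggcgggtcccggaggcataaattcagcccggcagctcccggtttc
Jun: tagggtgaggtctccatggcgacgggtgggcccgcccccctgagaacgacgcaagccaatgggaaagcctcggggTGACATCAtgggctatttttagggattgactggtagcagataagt
Junb: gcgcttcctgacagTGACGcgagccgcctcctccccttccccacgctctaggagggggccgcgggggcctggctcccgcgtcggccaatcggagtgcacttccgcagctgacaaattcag
Jund: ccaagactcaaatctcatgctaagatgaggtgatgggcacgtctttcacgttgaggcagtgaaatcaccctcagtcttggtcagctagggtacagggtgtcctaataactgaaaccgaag
Zfp36: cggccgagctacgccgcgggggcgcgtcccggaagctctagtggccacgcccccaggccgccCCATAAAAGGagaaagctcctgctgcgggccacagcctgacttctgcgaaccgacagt
The half-site TGACG lay within 250 bases upstream of the start in 4 of the 7 members (Fos, Fosb, Junb and Atf3), compared with 17.8% of all 32851 RefSeq promoters. Counted back from the start, with −1 as the last base shown, it began at −129 and −66 in Fos, where the TATA box began at −33, and at −106 in Junb. The octamer TGACATCA was found in Jun alone of the 7, compared with 2.93% of all promoters, and the CArG box in Zfp36 alone, compared with 1.47%. The TATA box was found in Fos (12.4% of all promoters), and 5 members held the GC box GGGCGG (32.7% of all promoters), which is left in lower case and overlaps the CArG box of Zfp36 by 1 base. In Jund none of these motifs was present. These matches describe letters in the windows only.

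Levels are given as RPM, which is the whole reads recovered from the deposited values as a share of all recovered reads of the cell, scaled to 1000000 reads. Recovered reads ranged from 1146945 to 4776510 per cell, with medians of 2963854 in stromal and 2714449 in other cells, whereas genes above 0 had medians of 2813 and 1416. At least 3 of 12 stromal markers reached 100 reads in 57 of the 58 stromal cells and in 0 of 27 other cells, and at least 3 of 15 endothelial markers did so in 1 stromal cell and 24 other cells, including Cdh5, whose protein the sort selected against, in 20 of them. At least 3 of 8 mural markers were at 100 reads in 0 cells, and at least 3 of 6 mesothelial markers in 2 stromal cells. The table held 4 of 10 immune, 2 of 8 adipocyte and 2 of 5 Schwann cell markers, and none of these reached 100 reads in 54, 17 and 49 of the 58 stromal cells and in 27, 16 and 27 of the 27 other cells. No cell had a Dcn value between 500 and 2000, and the values nearest to the limit were 269 below and 6521 and 11185 above it. The cell at 6521 held only 69 reads of Dcn, raised by the largest factor in the table (94.5), together with the fewest reads, 850 genes and 0 stromal markers at 100 reads, but 16197 reads of the endothelial marker Kdr, so results are also given without it where they change.

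Low counts were not read as expression. Reads of Dcn were found in all 27 other cells, with a median of 14 reads (range, 4–248), and reads of Cdh5 in 7 of 58 stromal cells, 0 of which reached 100. A member was therefore counted as held at 100 recovered reads, and the numbers of cells above 0 are given beside it. Across the 10 members, the share of cells above 0 was larger in stromal than in other cells for all 10, and at 100 reads for 9, the exception being Egr1. Without cells under 1000 genes, the share at 100 reads was lower in stromal cells for Ier2 and Zfp36 too. Ier2 was then held by 45 of 57 stromal and 20 of 22 other cells, and Zfp36 by 47 and 19. By the difference in means given below, 83.6% of all genes tested were higher in stromal cells.

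Of the Fos family, Fos RNA was the most abundant. In stromal cells it ranged from 0 to 24733 RPM with a median of 6066, and in other cells from 0 to 20461 with a median of 2101. At its highest, Fos alone made up 2.47% of the reads of a cell. Fos reached 100 reads in 45 of 58 stromal cells (77.6%; exact 95% interval, 64.7–87.5%) and in 15 of 27 other cells (55.6%; 35.3–74.5%). It was at 0 in 11 stromal and 12 other cells, and only 2 cells in all held between 1 and 99 reads, so that Fos was either abundant or absent from nearly every library.

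Fosb, the closest relative of Fos among the members, separated the classes more than any other member. Its level ranged from 0 to 6700 RPM in stromal cells, with a median of 906, and from 0 to 1697 in other cells, with a median of 0. At 100 reads it was held by 47 stromal cells (81.03%; 68.6–90.1%) and 5 other cells (18.5%; 6.30–38.1%). Still, the classes overlapped, as 10 stromal cells lacked Fosb reads and 9 other cells had some. In other cells Fos and Fosb were mostly apart, with 2 cells holding both at 100 reads, 13 only Fos and 3 only Fosb, compared with 39, 6 and 8 among stromal cells.

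Of the Jun family, Jun, the partner of Fos in classical AP-1, ranged from 0 to 7495 RPM in stromal cells with a median of 415, and from 0 to 5021 in other cells with a median of 124. Reads of Jun were present in 57 of 58 stromal cells and 23 of 27 other cells, but at 100 reads in 50 (86.2%; 74.6–93.9%) and 14 (51.9%; 31.9–71.3%). Junb, a Jun protein of weaker activating capacity, was the member held at 100 reads by the most cells, 54 stromal (93.1%; 83.3–98.1%) and 20 other (74.1%; 53.7–88.9%). Its median was lower in stromal than in other cells, at 816 RPM (range, 0–4048) compared with 1330 RPM (0–5635). Jund, the Jun gene that is least dependent on stimulation, was low in both classes, with medians of 78.2 RPM (0–841) in stromal and 65.9 RPM (0–1020) in other cells, and reached 100 reads in 41 and 15 cells.

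Egr1, a zinc finger transcription factor, had nearly the same median in both classes, 449 RPM in stromal (0–7331) and 461 RPM in other cells (0–8016). It reached 100 reads in 39 of 58 stromal cells (67.2%; 53.7–78.99%) and 20 of 27 other cells (74.1%; 53.7–88.9%). In stromal cells its levels were split, as 57 cells had some Egr1 reads but 14 of them fewer than 10. Atf3, a stress-responsive member of the ATF/CREB family, was held at 100 reads by 29 stromal cells (exact interval, 36.6–63.4%) and 8 other cells (29.6%; 13.8–50.2%), with medians of 126 and 0 RPM. Where it was present it could be abundant, with a highest level of 5584 RPM in stromal and 9923 RPM in other cells.

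Ier2, a small nuclear protein, was the only member with a lower mean of log2(value + 1) over all stromal cells than over all other cells. Its medians were 399 RPM in stromal (0–4192) and 902 RPM in other cells (0–3017), although the shares of cells at 100 reads were similar, at 77.6% (64.7–87.5%) and 74.1% (53.7–88.9%). Zfp36, the RNA-binding protein that limits the lifetime of AU-rich transcripts, had medians of 747 RPM in stromal (0–7838) and 392 RPM in other cells (0–4314). It reached 100 reads in 47 stromal and 20 other cells.

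Myc was found in stromal cells and in none of the other cells of this sample. Its reads were present in 25 of 58 stromal cells and reached 100 in 21 (36.2%; 23.99–49.9%), whereas 0 of 27 other cells had a Myc read, which allows a share of up to 11.1% by the limit of 3 counts and 12.8% by the exact interval. Over stromal cells the level ranged from 0 to 1284 RPM with a median of 0, and the median over the 25 cells with reads was 176 RPM. The 21 cells with Myc at 100 reads and the other 37 stromal cells were alike in the median number of genes, 2814 compared with 2812. They differed in the share of reads in the 9 immediate early genes, with medians of 2.06% and 1.001%. Of these 9 genes, which leave Myc out, 8 compared with 7 reached 100 reads in the median cell.

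**Figure D1:**
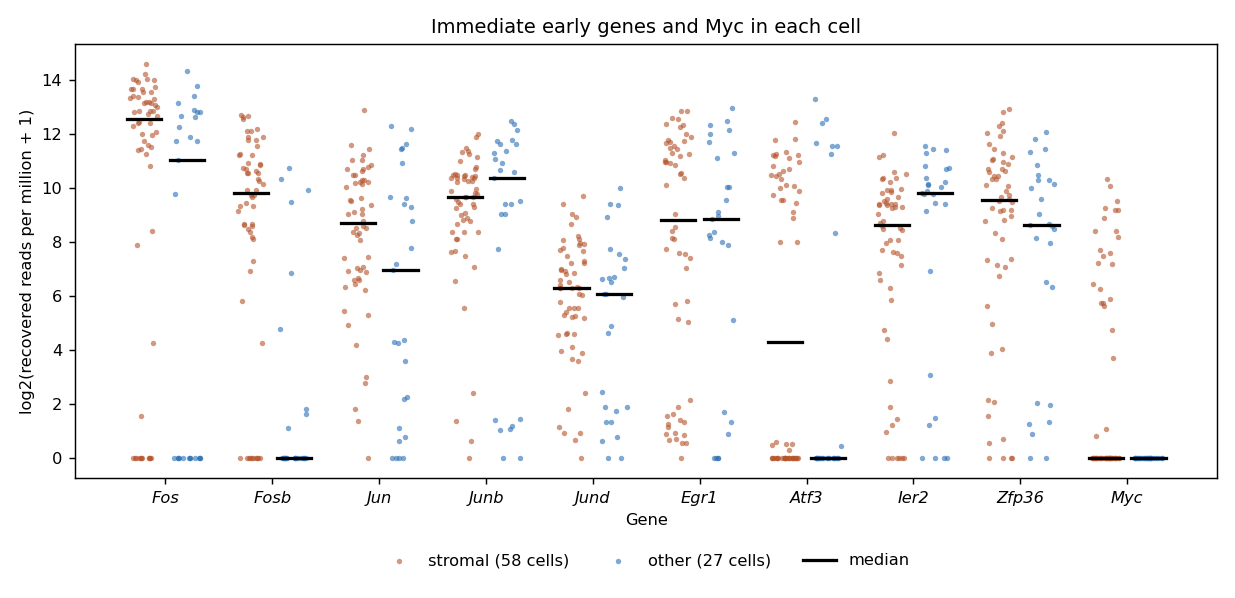
Level of each member in each cell, as log2(RPM + 1), for 58 stromal and 27 other cells; each point is a cell and each bar a class median. Both classes hold cells at 0 for every member, Fosb and Atf3 have a median of 0 in other cells, and Myc is at 0 in all 27 other cells.

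The difference between the classes was computed as the mean of log2(value + 1) on the deposited values in stromal cells minus that in other cells. Fosb had the largest difference among the members, with 9.61 ± 4.74 (SD over cells) in stromal and 2.57 ± 4.36 in other cells, a difference of 7.04, and 0.68% of all genes tested had a larger one. It was followed by Myc (difference, 3.65, with every other cell at 0, so that the size depends on the added constant), Fos (3.42), Jun (2.28) and Atf3 (2.15). These 5 members lay above 2, compared with 16.4% of the 11477 genes above 0 in at least 3 cells, and 0 members lay below −2, compared with 1.09%. The other differences were 1.10 for Junb, 1.08 for Zfp36, 1.01 for Jund, 0.07 for Egr1 and −0.31 for Ier2.

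These counts were also read against genes above 0 in at least as many cells as Myc, the member found in the fewest cells. The 9 immediate early members were above 0 in 43 to 82 cells, so that set matches them only in part. The median difference was 1.63 over the 10 members and 0.64 over all genes tested, 83.6% of which were higher in stromal cells. Of the 2499 genes above 0 in at least as many cells as Myc, 54.8% lay above 2 and 1.84% below −2, and their median difference was 2.26. Among such genes, the 5 of 10 members above 2 lay near the background. When the share of cells at 100 reads was compared instead, Fosb differed by 62.5 percentage points, Myc by 36.2 and Jun by 34.4. These 3 members passed 30 points, compared with 7.96% of all genes, while 0 members passed 30 points toward other cells, compared with 0.523%. Both shares are over all 11477 genes tested, many of them found in few cells. They are not a background of genes found as often as the members.

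Cells with few genes bore on several of these values. The members of a cell and its number of genes moved together in other cells, with a Spearman correlation of 0.50 (27 cells) between the number of members at 100 reads and the number of genes above 0, compared with 0.23 in stromal cells (58 cells). Against recovered reads the correlations were −0.01 and 0.02. Without the 6 cells that held under 1000 genes (1 stromal and 5 other, whose median number of members at 100 reads was 0 in both classes), only Fosb (6.62) and Myc (3.71) stayed above 2. The differences of Fos, Jun and Atf3 were then 1.86, 1.54 and 1.38, those of Junb, Zfp36 and Egr1 were −0.03, −0.13 and −1.37, and Ier2 at −2.08 lay below −2. Over all genes, 15.1% then lay above 2 and 1.52% below −2. The part that the number of genes had in the differences was not tested.

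**Figure D2:**
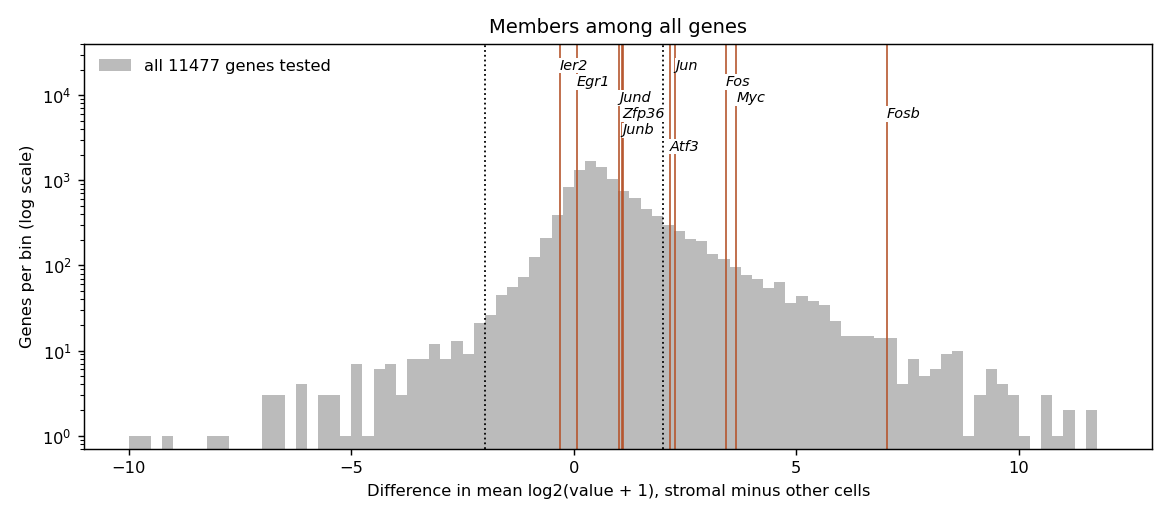
Number of genes (log scale) by the difference in mean log2(value + 1), stromal minus other cells, for all 11477 genes tested; lines mark the 10 members and dotted lines the limits of −2 and 2. Fosb at 7.04 lies far to the right, 5 members lie above 2, and Egr1 and Ier2 lie near 0.

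To compare members with each other, RPM were divided by the exon length in kilobases (RPKM). In stromal cells the order by median RPKM was Fos (2877), Junb (451), Ier2 (262), Fosb (240), Zfp36 (215), Jun (130), Egr1 (100.2), Atf3 (58.7), Jund (46.9) and Myc (0). Fos lay above Junb in 43 of 58 cells and Junb above Ier2 in 40, whereas Ier2, Fosb and Zfp36 were not ordered within cells, since Ier2 lay above Fosb in 25 cells and below it in 29, and Fosb above Zfp36 in 28 and below it in 27. In other cells Fos (997) and Junb (735) led without an order between them (12 cells above and 13 below), followed by Ier2 (593), Zfp36 (113), Egr1 (103), Jund (39.5) and Jun (39.03), and the medians of Atf3, Fosb and Myc were 0. By reads, Fos was the first of the 9 immediate early members in 40 of 58 stromal cells and in 10 of 27 other cells, where Ier2 came first in 6 and Junb in 4.

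Most cells held many members at once. The median number of members above 0 was 9 in stromal (range, 3–10) and 7 in other cells (3–9), and at 100 reads it was 8 and 6. At least 8 members reached 100 reads in 32 of 58 stromal cells and 2 of 27 other cells. All 10 did so in 10 stromal cells, and all 9 immediate early members in 17 stromal cells and 1 other cell. At the lower end, 5 stromal and 5 other cells held at most 3 members at 100 reads.

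**Figure D3:**
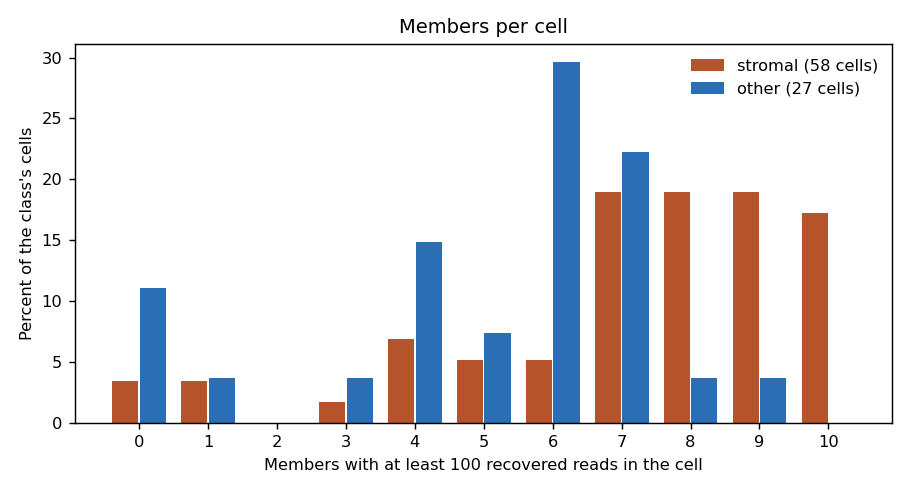
Percent of the 58 stromal and of the 27 other cells by the number of members with at least 100 recovered reads. Stromal cells lie mostly at 7 to 10 members and other cells mostly at 4 to 7, and no other cell holds all 10.

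Together, the 9 immediate early members took a median of 1.403% of the reads of a stromal cell (highest, 4.39%) and 1.20% of those of an other cell (highest, 3.04%). The 13 stromal cells with Fos under 100 reads held a median of 4 of the 9 at 100 reads, compared with 8 of the 9, Fos included, in the 45 cells with Fos. Their median numbers of reads were 2852045 and 2989758, and of genes 2487 and 2963. Stromal cells with Atf3 at 100 reads held a median of 9 of the 9, Atf3 included, compared with 7 in the 29 cells without it. In both splits the gene that divided the cells is itself counted, so part of each difference is set by the split.

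**Figure D4:**
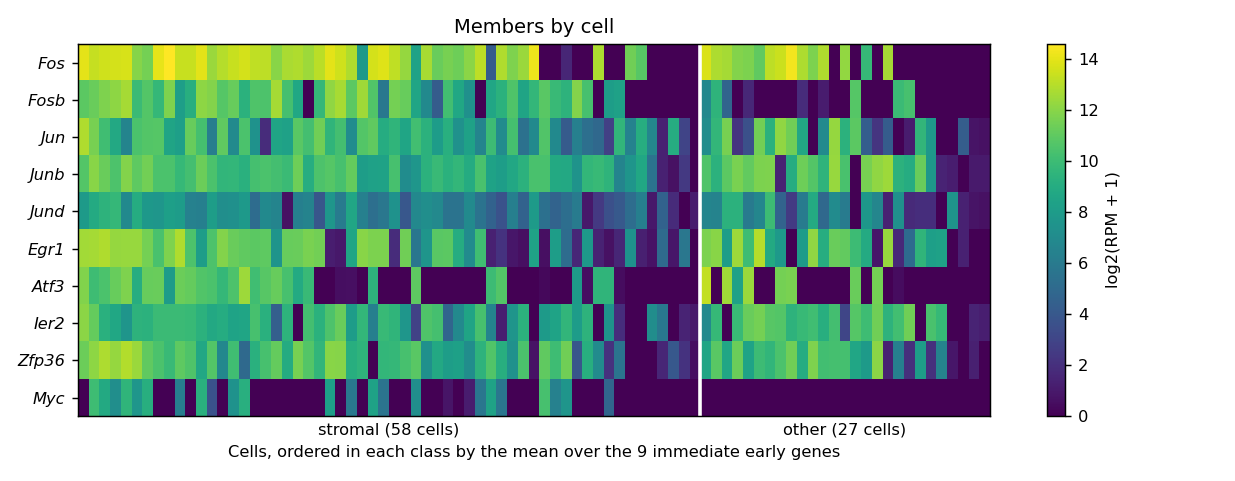
Level of each member (rows) in each cell (columns) as log2(RPM + 1), with cells ordered in each class by the mean over the 9 immediate early members. Most stromal cells hold nearly all 9, cells at the right of each class hold few, and Myc is scattered over stromal cells.

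Across the 58 stromal cells, the levels of the members varied together. All 45 pairs had a positive Spearman correlation on log2(value + 1), with a median of 0.40 (range, 0.08–0.62), and 44 were positive among cells with both genes of the pair above 0 (median, 0.32). These cells share 1 sample and differ in depth, so the correlations are a description. The median was 0.43 in the 29 stromal cells with at least the median number of genes and 0.40 without the cell of the largest factor.

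The closest pairs were Junb with Zfp36 (0.62), Junb with Jund (0.60), Fos with Junb (0.60) and Fos with Jund (0.58). Junb and Zfp36 both reached 100 reads in 47 stromal cells, Junb alone in 7 and Zfp36 alone in 0. Likewise, all 45 stromal cells with Fos at 100 reads had Junb at 100 reads, which 54 of all 58 stromal cells held. Set against the mean of the other members, the correlation was highest for Jund (0.69) and Junb (0.68), followed by Egr1 (0.64), Fos (0.63), Zfp36 (0.61), Atf3 (0.55), Ier2 (0.49), Fosb (0.49) and Jun (0.44), and lowest for Myc (0.34). In the 27 other cells the 36 pairs of immediate early members had a median of 0.25 (range, −0.13 to 0.58), led by Fos with Zfp36 (0.58), Junb with Egr1 (0.56) and Junb with Jund (0.56), and Fosb with Junb was at −0.13. The difference between the classes in these correlations was not tested.

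**Figure D5:**
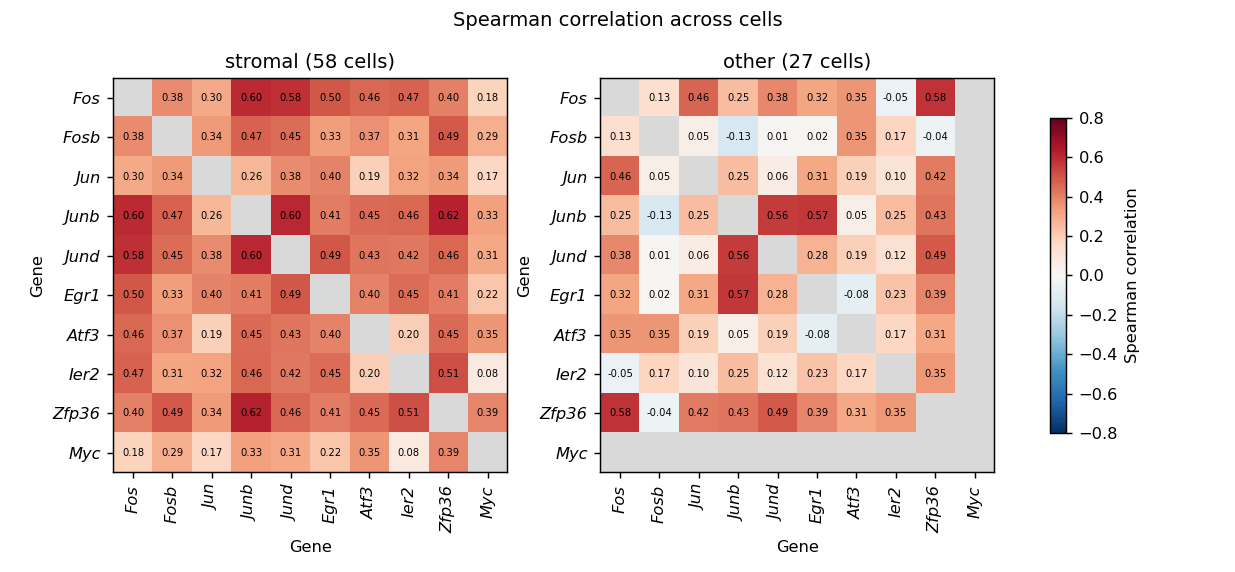
Spearman correlation between members on log2(value + 1) across stromal cells (left) and other cells (right), with 1 square per pair; grey squares have no value, as Myc is at 0 in all other cells. All 45 pairs are positive in stromal cells, between 0.08 and 0.62.

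Myc correlated less with the 9 immediate early members than these did with each other, with a median of 0.29 over its 9 pairs compared with 0.42 over their 36 pairs. Its highest values were with Zfp36 (0.39) and Atf3 (0.35) and its lowest with Ier2 (0.08). All 21 stromal cells with Myc at 100 reads had Junb at 100 reads, and 20 of them had Zfp36, Fosb or Jun, counted for each gene separately, whereas Fos was held by 17 and Atf3 by 14. These genes were common in stromal cells with or without Myc. Of all 58, Junb was held by 54, Jun by 50, Zfp36 and Fosb by 47 each, Fos by 45 and Atf3 by 29.

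The genes most like the members across stromal cells were named by the highest Spearman correlations among the 5373 genes above 0 in at least 10 stromal cells. With the mean of the 9 immediate early members these were Btg2 (0.63), an antiproliferative immediate early gene, the long noncoding RNA Neat1 (0.61), Gm37486 (0.59), Hk2 (0.58), which encodes a hexokinase of glycolysis, and Gm6485 (0.57), compared with a median of 0.04 and a 95th percentile of 0.29 over all these genes. Gm37486 and Gm6485 reached 100 reads in 0 stromal cells. Btg2 reached 100 reads in 44 stromal and 16 other cells and Hk2 in 35 and 0. All 44 stromal cells with Btg2 at 100 reads had Junb at 100 reads, which 54 of all 58 stromal cells held.

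With Myc, the leading genes were Il6, a cytokine (0.57), Rasl11b, a small GTPase (0.56), Bcl10, an adaptor of NF-κB signaling (0.50), Tpst1, a tyrosylprotein sulfotransferase (0.49), and Acbd5 (0.45), compared with a median of 0.02 and a 95th percentile of 0.25. Il6 reached 100 reads in 17 stromal and 0 other cells. Myc and Il6 were both at 100 reads in 12 stromal cells, Il6 alone in 5, Myc alone in 9 and neither in 32. Rasl11b rested on fewer cells, with 7 at 100 reads, 6 of them with Myc.

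Other genes of the pathway were taken from lists that were chosen by name. Each count below stands beside 16.4% of all genes tested above 2 and 1.09% below −2, and beside 54.8% and 1.84% of the genes above 0 in at least as many cells as Myc. On RPM, 12.2% of all genes lay above 2 and 0.95% below −2. Of the 17 other immediate early genes listed, 15 were above 0 in at least 3 cells. Of these 15, 6 had a difference above 2 (4 on RPM), compared with 16.4% of all genes, and 0 below −2 (median difference, 1.60). The largest were those of Klf4 (5.14), which reached 100 reads in 49 stromal and 10 other cells, Nr4a1 (4.55), Fosl2 (3.85), a Fos relative, and Ier5 (3.60), and the smallest were Klf2 (0.00) and Nr4a2 (−0.42). All 12 that could be correlated across stromal cells were positive with the mean of the 9 members, with a median of 0.19. Among the 5373 genes above 0 in at least 10 stromal cells, 3333 were positive with that mean, and the median was 0.04. Of 17 AP-1, ATF and MAF partners tested, 5 lay above 2 (3 on RPM), compared with 16.4% of all genes, and 0 below −2 (median, 1.47), led by Maf (5.67), Fosl2, Cebpd (3.72) and Maff (2.27), whereas Atf4, the effector of the integrated stress response, was at 0.60 and Atf2, a partner of Jun, at 0.58.

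Of 18 kinases and factors that act upstream of the members, 3 lay above 2 (2 on RPM), a share near the 16.4% of all genes, and 0 below −2 (median, 0.61, compared with 0.64 over all genes). Those above 2 included the receptor Egfr (3.07) and the stress-activated kinase gene Mapk9 (2.23). Creb1, which binds the cyclic AMP response element, was at 1.48, Braf at −0.12 and Elk3 at −0.76. Egfr reached 100 reads in 12 of 58 stromal and 0 of 27 other cells. Of 14 feedback inhibitors tested, 5 lay above 2 (3 on RPM), compared with 16.4% of all genes, and 0 below −2 (median, 1.35). The largest were Zfp36l2 (4.48), a relative of Zfp36, Nfkbia (3.47), an inhibitor of NF-κB, Socs3 (2.59), an inhibitor of cytokine signaling, and Dusp1 (2.17), a phosphatase of MAP kinases that reached 100 reads in 45 stromal and 15 other cells, and the smallest were Dusp5 (0.03) and Btg1 (−0.81). Across stromal cells Dusp1 correlated at 0.45 with the mean of the 9 members.

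Of the 8 lists, AU-rich transcripts that the Zfp36 protein is known to bind had the highest median difference. Of 7 tested, 6 lay above 2 (5 on RPM), compared with 16.4% of all genes, and 0 below −2 (median, 3.02, compared with 0.64). Among genes found at least as often as Myc, 54.8% lay above 2, with a median of 2.26. That set matches this list only in part. Il6 and Ptgs2 had reads in 19 stromal cells each, fewer than the 25 cells with Myc. Those above 2 included the chemokine Cxcl1 (4.79), Il6 (3.27), Ptgs2, the inducible cyclooxygenase (3.06), Vegfa (3.02) and Ier3 (2.33), whereas Plk2 was at −1.14. Il6 and Ptgs2 had no read in any of the 27 other cells. Across stromal cells the 7 genes tested had a median correlation of 0.36 with the mean of the 9 members.

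Of 8 Myc partners tested, Mxd4 (3.62), an antagonist of Myc at Max, lay above 2, on RPM too, compared with 16.4% of all genes, and Mga (1.59), Mlx (1.002), Mxi1 (0.64), Mxd1 (−0.10) and Max (−0.30) lay between −2 and 2. Mxd4 reached 100 reads in 24 stromal cells and Mga in 14. Max, which Myc needs to bind DNA, had reads in 8 of 58 stromal and 3 of 27 other cells, and Mxd4 correlated at −0.27 with Myc across stromal cells. Of 26 Myc targets, 9 lay above 2 (8 on RPM), compared with 16.4% of all genes, and 0 below −2 (median, 1.44). These were led by Npm1 (5.61) and Ncl (4.05), which encode nucleolar proteins, Eif5a (4.26), a translation factor, and Nme1 (2.82), and the smallest were Tfrc (−0.54) and Hspd1 (−1.11). Across stromal cells their correlation with Myc was low, with a median of 0.12, and it was positive for 12 of the 18 that could be correlated. Over the 5373 genes above 0 in at least 10 stromal cells, 55.9% were positive with Myc and the median was 0.02. Ncl was at −0.08 and Npm1 at −0.02.

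Of 22 dissociation stress genes tested, 8 lay above 2, compared with 16.4% of all genes, and 4 below −2, compared with 1.09% (median, 0.95), and both counts were the same on RPM. The metallothioneins Mt2 (7.63) and Mt1 (5.78), the feedback inhibitor of EGF receptors Errfi1 (5.69) and Gadd45b (4.67) were highest in stromal cells, whereas the heat shock genes Hspb1 (−4.22) and Hspa1a (−4.94) were higher in other cells. At 100 reads, Hspa1a was held by 15 of 58 stromal and 16 of 27 other cells. Across stromal cells Gadd45b correlated at 0.50 with the mean of the 9 immediate early members, Mt1 at 0.32, Mt2 at 0.14 and Errfi1 at −0.01. Hspb1 was at 0.12 and Hspa1a at 0.09. The 8 genes above 2 ranged from −0.30 to 0.50 and the 4 below −2 from 0.07 to 0.46. The median correlation of the 22 genes with that mean was 0.15. The summed level of endothelial markers correlated at −0.25 with that mean across stromal cells and that of stromal markers at 0.09, and their part in the co-variation was not tested. All cells passed through the same digestion and sort, so levels in the tissue and levels after dissociation cannot be told apart.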

How the data were processed

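Single PV-ADSCs, 1 library per cell, were analysed as 1 sample. The authors aligned reads to mm9 and deposited 1 table whose unit is a signal, namely read counts after normalization, made with HISAT2 2.0.5, SAMtools 1.4 and StringTie 1.3.3 per the labels, and with scater for quality control and scaling by the study's methods. The program that counted reads is not given in the sources used here. The members and all gene lists were chosen with earlier results of these data known.

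From the deposited values, log2(value + 1) was used for means, differences and correlations. In the table, 10665 genes held whole numbers and 5404 genes fell into 13 groups, each multiplied by its own factor in each cell (0.0157–94.5). Whole reads were recovered by dividing each value by its factor, a method chosen after the values were seen. All values came out whole within a relative tolerance of 1e-08 or an absolute one of 1e-06. On simulated reads of 16069 genes, 100% of values were recovered, with factors less extreme than the largest here. No count test was made, since all cells are 1 sample. RPM and RPKM were made from recovered reads and exon lengths of the GENCODE annotation of GRCm38, a later build than mm9 that served for lengths only.

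Named genes were the members, Dcn, genes of the sort gate (Ly6a, which encodes Sca1, at 100 reads in 72 of 85 cells, Itgb1, which encodes CD29, in 43 and Cdh5 in 20, with Ptprc not analysed here), markers, up to 4 genes of each list with the largest and 2 with the smallest difference, and the 5 genes most like the members. The values of 1 gene that this rule takes are not reported here. A difference past 2 was counted over genes above 0 in at least 3 cells. The intervals given (Clopper-Pearson, exact, 95%), like the limit of 3 counts for a share of 0, cover counting error only. Doublets were not called, since 1 cell was sorted per library. Alternatives covered the limit on Dcn, the added constant, RPM, filters, reads per cell and cells with few genes. Python 3.11.15, numpy 2.4.6, pandas 2.3.3, scipy 1.17.1 and matplotlib 3.10.9 were used.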

Additional observations from a re-analysis of the deposited data

How the results depend on the processing

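The number of members above a difference of 2 was 5 with another limit on Dcn, on recovered reads of Dcn, without the cell of the largest factor, without a filter on genes and for genes above 0 in at least 10 cells, and 4 on RPM. It was 2, with 1 member below −2, without cells under 1000 genes, 3 with an added constant of 10, 8 at a limit of 1, and 3 for the share of cells at 100 reads past 30 points. Under these alternatives the differences ranged from 5.26 to 7.30 for Fosb, 2.30 to 3.71 for Myc, 1.86 to 3.89 for Fos, 1.54 to 2.39 for Jun, 1.38 to 2.40 for Atf3 and 0.53 to 1.38 for Jund, and the sign changed for Junb (−0.03 to 1.52), Zfp36 (−0.13 to 1.45) and Egr1 (−1.37 to 0.61), whereas Ier2 stayed below 0 (−2.08 to −0.01). Median members per cell were 8 or 9 in stromal and 6 or 7 in other cells, also with each cell thinned to 1146945 reads, and the median Spearman correlation in stromal cells lay between 0.32 and 0.43. Without cells under 1000 genes, the cause of the change was not tested. No paired analysis was possible because the cells carry no replicate numbers shared between groups and form 1 sample. Alternatives on the cell of the largest factor, on Dcn reads, on the share at 100 reads and on cells with many genes were added after the data had been seen. The reads per cell limit what a value of 0 can show, since transcripts lost before sequencing leave no read.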
